A study of Mus musculus with 18 samples.

Results

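The cytochrome P450 genes of the mouse kidney cortex were read on Illumina mouse BeadChips in 5 strains after anti-glomerular basement membrane (anti-GBM) challenge. The members were the probes whose gene symbol begins with Cyp, a family number, and a subfamily letter, together with the probe of Cyp4b1, which the table lists under a provisional name. Cyp51, Cyp24a1, and Cyp27b1 were left out. This gave 108 probes of 75 genes among the 46643 probes of the table that holds B6 and NZW. In the other table, which holds BALB/c, DBA1, and 129/svj, rows were taken whose identifier matched the search key of a member, which gave 34 probes of 30 genes among 46147.

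Kidney cortex RNA came from 15 mice aged 2 months, with 3 mice in each strain (B6 and NZW in the first table, and BALB/c, DBA1, and 129/svj in the other). Every mouse had received anti-GBM antibodies, which bind the glomerular filter and cause nephritis, and no unchallenged mice are among these arrays. The strains carry no engineered allele that the labels name. The study classes B6 and BALB/c as resistant and NZW, DBA1, and 129/svj as sensitive, so each table holds 1 resistant strain. A strain difference present before the challenge and a difference in the response to it cannot be told apart here. The labels do not say that the mice of a strain came from separate litters or cages, so p-values measure only the spread between these mice.

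Cytochrome P450 enzymes hold a haem group and use it to insert oxygen into fats, steroids, retinoids, and foreign compounds. Those of the endoplasmic reticulum take electrons from cytochrome P450 reductase (Por), and those of mitochondria from ferredoxin. In the kidney they are best known in the proximal tubule, where Cyp4a and Cyp2c enzymes turn arachidonic acid into lipids that act on blood vessels and salt transport.

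Near-identical copies are common in this family, and they limit what a probe can tell. Cyp2a4 and Cyp2a5, which both differed between strains below, are also alike in the DNA before their starts. That DNA is not part of the RNA that a probe binds. RefSeq gives a window before the gene start for 57 of the 75 member genes, under the same symbol. Shown here are the 250 bases before the start on the gene strand, from GRCm38.p6, for both Cyp2a genes, for Cyp2d9, another member with a large strain difference, and for Cyp4b1, which was lower in the resistant strain of both tables. Cyp2a4 lies at chr7:26306942-26307191 on the plus strand, Cyp2a5 at chr7:26835089-26835338 on the plus strand, Cyp2d9 at chr15:82452127-82452376 on the plus strand, and Cyp4b1 at chr4:115647722-115647971 on the minus strand. Capitals mark matches, on either strand, to the TATA box as TATAAA, to the steroid receptor core motif AGAACA, to the nuclear receptor core motif AGGTCA, or to the STAT motif TTCNNNGAA.
Cyp2a4: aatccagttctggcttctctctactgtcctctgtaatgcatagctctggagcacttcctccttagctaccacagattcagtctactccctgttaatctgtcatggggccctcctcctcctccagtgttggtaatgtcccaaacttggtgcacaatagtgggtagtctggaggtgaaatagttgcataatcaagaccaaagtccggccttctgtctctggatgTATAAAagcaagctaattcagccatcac
Cyp2a5: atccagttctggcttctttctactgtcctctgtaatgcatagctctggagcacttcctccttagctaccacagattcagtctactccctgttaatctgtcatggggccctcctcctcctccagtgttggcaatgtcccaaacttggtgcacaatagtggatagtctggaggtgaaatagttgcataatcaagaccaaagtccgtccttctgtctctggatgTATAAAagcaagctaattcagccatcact
Cyp2d9: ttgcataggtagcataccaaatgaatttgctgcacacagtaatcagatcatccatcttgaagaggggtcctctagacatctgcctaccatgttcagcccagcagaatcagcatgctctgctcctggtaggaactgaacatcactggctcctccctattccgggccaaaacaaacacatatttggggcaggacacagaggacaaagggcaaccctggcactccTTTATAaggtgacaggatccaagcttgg
Cyp4b1: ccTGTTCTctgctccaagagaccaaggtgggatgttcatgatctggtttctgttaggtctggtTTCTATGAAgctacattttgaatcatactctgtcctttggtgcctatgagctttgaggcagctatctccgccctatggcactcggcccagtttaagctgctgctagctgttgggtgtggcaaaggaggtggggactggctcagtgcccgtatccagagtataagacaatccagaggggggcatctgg

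With the starts offset by 1 base, the windows of Cyp2a4 and Cyp2a5 had the same base at 245 of 249 positions, or 98.4%, and differed at 4. Both hold TATAAA shortly before the start, at bases 28 to 23 in Cyp2a4 and 29 to 24 in Cyp2a5. Cyp2d9 matched TATAAA on the other strand, at bases 28 to 23. Cyp4b1 held no TATAAA, 1 AGAACA match at bases 248 to 243, and 1 TTCNNNGAA match at bases 187 to 179. AGGTCA was in none of the 4 windows. Of all 32851 windows of this length, 12.4% hold TATAAA, 16.1% AGAACA, 14% AGGTCA, and 7.02% TTCNNNGAA, so these matches describe letters and not sites in use.

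Detection decided which members could be compared. A probe counted as detected in a mouse where its signal stood above the control beads with a detection p-value of 0.05 or less. In the table of B6 and NZW, 34 of 108 probes were detected in each of the 6 mice, 61 in none, and 7 in 1 or 2 mice, which left 40 probes of 29 genes detected in at least 3 mice, and these were tested. With BALB/c, DBA1, and 129/svj, 7 of 34 probes were detected in all 9 mice and 19 in none, and 11 probes of 11 genes were tested. The share tested was 37% of members beside 35.9% of all probes for B6 and NZW, and 32.4% beside 34.3% for the other strains. A probe that was bright in a single strain passed this filter through that strain, so counts over the tested probes do not describe all members.

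**Figure D1:**
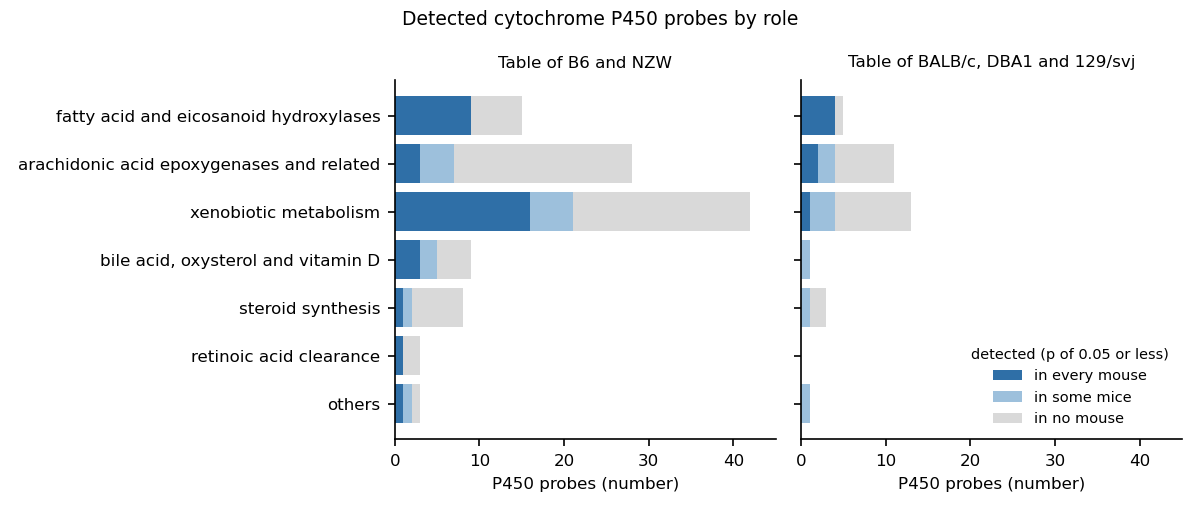
Number of cytochrome P450 probes (x axis) by role (y axis), split into probes detected in every mouse, in some mice, and in no mouse, for the table of B6 and NZW (left) and the table of BALB/c, DBA1, and 129/svj (right). The fatty acid hydroxylases were detected in every mouse for 9 of 15 probes in the left panel, and the epoxygenases in no mouse for 21 of 28.

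The roles differed in how much of them was seen, as the plot of detected probes by role shows. Of the 12 genes of the Cyp4 and Cyp2u group, which hydroxylate fatty acids and eicosanoids, 8 were tested in B6 and NZW. Of the 18 Cyp2c and Cyp2j genes, which make epoxides of arachidonic acid and related lipids, 4 were tested, including 1 of 12 Cyp2c genes and 3 of 6 Cyp2j genes. Of the 29 genes that act on foreign compounds, 11 were tested, among them 4 of 7 Cyp2d genes and 1 of 5 Cyp3a genes, while none of the 5 Cyp2b genes was. Steroid synthesis had 2 of 6 genes tested, bile acid and oxysterol metabolism 2 of 7, and retinoic acid clearance 1 of 2.

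Array quality and tissue markers bear on all that follows. Arrays had a median signal of 81.1 to 89.8 for B6 and NZW and of 118 to 152 for the other strains, with 30.5% to 36.4% of probes detected. Mouse 1 of each strain in the table with BALB/c was run again, and both arrays of a mouse correlated at 0.987 to 0.989 over the tested probes and were averaged. Over the 15 tested probes of 11 proximal tubule marker genes, the summed signal was 95500 to 103000 in NZW and 76900 to 89900 in B6, with 1 probe higher in B6 and 5 lower. Among 8 tubule injury probes 3 were higher in B6 and 3 lower, with Havcr1 at a log2 difference of -2.77 and Lcn2 at 1.80. In the other table the summed proximal tubule signal over 10 probes was 40700 to 47600 in BALB/c, 34700 to 47200 in DBA1, and 27900 to 39400 in 129/svj, with 2 probes higher and 1 lower in BALB/c than in the mean of DBA1 and 129/svj. The labels give no sex, and the letter F in the titles is not explained. Cyp2d9, Cyp4a12a, Cyp4a12b, Cyp7b1, and Cyp2a4 are known to differ between male and female mice, so a strain difference in them and a sex difference between the mice cannot be told apart from the labels. In all 15 mice no probe of the Y-linked genes Eif2s3y and Jarid1d was detected. One probe of the Y-linked gene Uty was detected in 6 of the 6 B6 and NZW mice, at log2 signals of 5.56 to 5.96, and one in 7 of the other 9 mice, at 5.56 to 6.06, while the other Uty probes were in none. Neither probe of Ddx3y, also Y-linked, was detected in a B6 or NZW mouse. Of the Xist probes, 1 was detected in all 6 B6 and NZW mice, at log2 signals of 9.71 to 10.34, and the other in none. The detected Xist probe had a B6 minus NZW difference of 0.07 ± 0.16 (SE). The part of these values in the differences below was not tested. In whole cortex, fewer cells of a type and less RNA per cell cannot be told apart.

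Between B6 and NZW, 13 of the 40 tested P450 probes passed an adjusted p of 0.05, 9 higher in B6 and 4 lower. These were 7 genes higher in B6 (Cyp2c44, Cyp2a4, Cyp2d9, Cyp2a5, Cyp1b1, Cyp4a12b, and Cyp7b1) and 3 lower (Cyp3a13, Cyp4b1, and Cyp4f16). Among the lower probes, the Cyp3a13 probe ILMN_2700627 met the detection filter through NZW alone. Of all 16756 tested probes 18.9% passed, 9.25% higher and 9.61% lower, beside 32.5% of the members. The median log2 difference was -0.03 over the members and -0.04 over all probes. Differences are on the normalized log2 scale, which holds an offset of 16 and so understates changes of dim probes. At an unadjusted p of 0.05, 18 members passed.

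**Figure D2:**
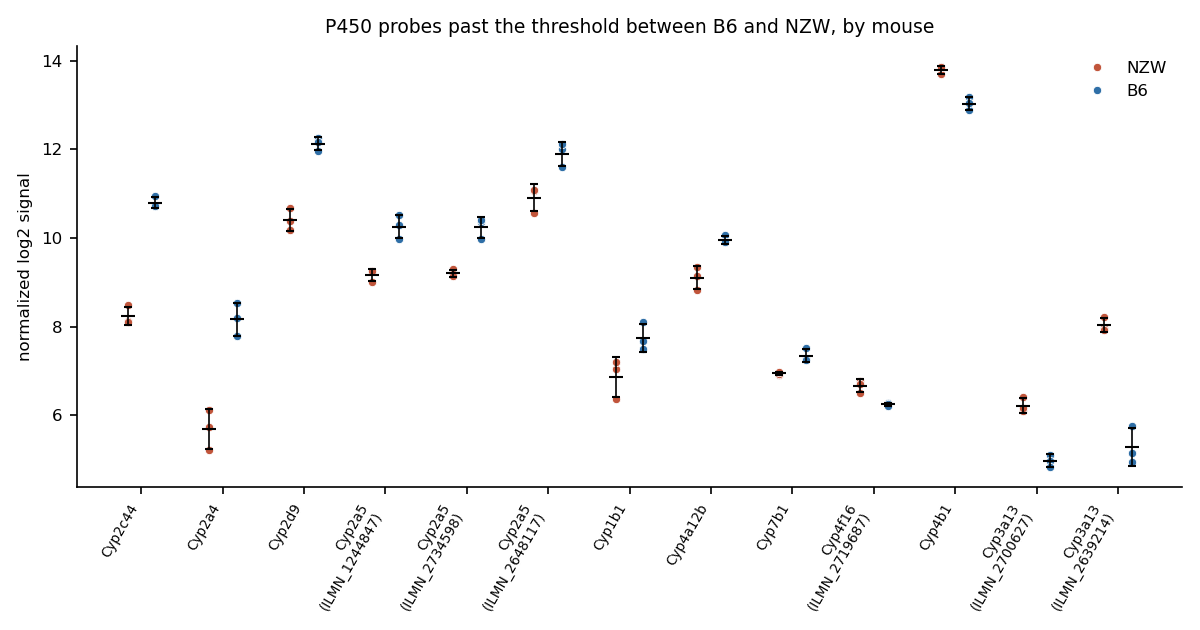
Normalized log2 signal (y axis) of the 13 P450 probes past the threshold between B6 and NZW (x axis), with a point per mouse, 3 mice per strain, a dash for the mean, and a bar for the SD. No probe has B6 and NZW mice that overlap, but these probes were picked by their adjusted p, so this is not a separate result. Of the 40 tested P450 probes, 17 had no overlap. The share without overlap over all probes is not given here. Heights of different probes are not comparable, since each probe binds its own target with its own strength.

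Among the fatty acid and eicosanoid hydroxylases, 1 of 9 tested probes was higher in B6, 2 were lower, and 6 did not pass. Cyp4b1, which hydroxylates fatty acids and activates some furan toxins, had log2 signals of 12.89, 13.17, and 13.04 in the 3 B6 mice and 13.70, 13.85, and 13.85 in the 3 NZW mice. Every B6 mouse was below every NZW mouse. The difference was -0.77 ± 0.12 (SE, n = 3 and 3), a 1.70-fold lower level in B6, with an adjusted p of 0.0021 by limma.

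Cyp4a12b, a hydroxylase of arachidonic acid, went the other way. It stood at 10.07, 9.92, and 9.90 in B6 and at 8.83, 9.35, and 9.14 in NZW, with no overlap. It was 1.81-fold higher in B6 (log2 difference 0.85 ± 0.15, SE, adjusted p = 0.0040, limma). Its near-identical copy Cyp4a12a gave -0.37 ± 0.11 (SE), with an adjusted p of 0.054 in the same fit. The mean of Cyp4a12a was 9.05 ± 0.08 in B6 and 9.42 ± 0.13 in NZW (SD, n = 3 each). The files hold no probe sequences, so how far each of these probes also binds RNA of the other copy is uncertain.

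The remaining Cyp4 members had small differences. Cyp4a14, a fatty acid hydroxylase that PPAR alpha induces, had a mean of 14.82 ± 0.07 in B6 and 14.72 ± 0.05 in NZW (SD, n = 3 each), with a difference of 0.10 ± 0.10 (SE) and an adjusted p of 0.55 by limma. Cyp4f13, of the subfamily that inactivates leukotrienes, gave 0.13 ± 0.12. Cyp4f16, of the same subfamily, was lower in B6 on 1 of its 2 probes, at -0.41 ± 0.11 (adjusted p = 0.034, limma), and the other gave -0.07 ± 0.12. The call on Cyp4f16 was lost without background correction (-0.22, adjusted p = 0.067) and without NZW 2, NZW 3, B6 1, B6 2, or B6 3, with adjusted p-values of up to 0.11. Cyp4f14 gave -0.28 ± 0.23 and Cyp4v3 gave -0.11 ± 0.13.

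Of the epoxygenases and related genes, 1 of 4 tested probes passed, and it had the largest rise of any tested member in B6 against NZW. Cyp2c44, an arachidonic acid epoxygenase of the kidney, stood at 10.72, 10.73, and 10.94 in B6 and at 8.14, 8.10, and 8.48 in NZW. The strains were far apart beside the spread within either. The log2 difference was 2.56 ± 0.14 (SE, n = 3 and 3), a 5.89-fold higher level in B6, with an adjusted p of 3.7e-06 by limma. The other Cyp2c44 probe was detected in no mouse of this table. The Cyp2j genes, whose enzymes also make epoxides, gave 0.06 ± 0.13 for Cyp2j11, 0.30 ± 0.13 for Cyp2j9, and -0.50 ± 0.17 for Cyp2j13, none past the threshold.

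The group that acts on foreign compounds and steroids held 19 tested probes, of which 6 were higher in B6, 2 were lower, and 11 did not pass. The Cyp2a genes lie close together on a chromosome and their enzymes hydroxylate coumarin, nicotine, and testosterone. Cyp2a4 stood at 7.80, 8.19, and 8.53 in B6 and at 6.12, 5.23, and 5.74 in NZW, where 2 of 3 mice had it detected. It was 5.55-fold higher in B6 (log2 difference 2.47 ± 0.25, SE, adjusted p = 0.00019, limma), with no overlap between strains. The difference was 1.5 without background correction.

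All 5 Cyp2a5 probes had a difference above 0, and 3 passed. The probe ILMN_1244847 stood at 9.97, 10.29, and 10.51 in B6 and at 9.25, 9.25, and 9.01 in NZW, a 2.13-fold higher level in B6 (1.09 ± 0.15, SE, adjusted p = 0.0014, limma). ILMN_2734598 gave 1.03 ± 0.14 and ILMN_2648117 gave 0.99 ± 0.19. The remaining pair, ILMN_1229267 and ILMN_2524932, gave 0.27 ± 0.13 and 0.39 ± 0.16, with overlapping strains and adjusted p-values of 0.19 and 0.13. The likeness shown above is of DNA before the starts and does not bear on what a probe binds. No probe or transcript sequences were compared, so which of the 2 genes each of these probes measured is uncertain.

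Cyp2d9, a testosterone hydroxylase, stood at 11.96, 12.26, and 12.17 in B6 and at 10.18, 10.67, and 10.38 in NZW. All B6 mice were above all NZW mice. The level was 3.31-fold higher in B6 (1.72 ± 0.15, SE, adjusted p = 8e-05, limma). The other tested Cyp2d genes gave values near 0. Cyp2d22 gave -0.11 ± 0.12 and -0.31 ± 0.19 on 2 probes, Cyp2d26 gave -0.09 ± 0.12 and -0.24 ± 0.13, and Cyp2d10 gave -0.09 ± 0.17, none past the threshold. Cyp2d genes are much alike, and which of them a probe reads is uncertain.

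Cyp3a13, a member of the Cyp3a drug and steroid oxidases, was lower in B6. On ILMN_2639214 it stood at 7.97, 8.21, and 7.93 in NZW and at 5.75, 5.15, and 4.96 in B6, where 1 of 3 mice had it detected. The difference was -2.75 ± 0.20 (SE, adjusted p = 2.6e-05, limma), with no overlap between strains. It was -1.58 without background correction, and since most B6 mice were below detection its size is not exact. On ILMN_2700627 no B6 mouse had it detected and all 3 NZW mice did, with means of 4.98 in B6 and 6.22 in NZW. Against the lowest detected signal of each B6 array, the NZW mean was at least 1.92-fold higher on that probe. This bound was computed with the main background correction and offset only. The fitted difference was -1.25 (adjusted p = 0.00023, limma), or -0.59 without background correction and -0.73 with an offset of 50. This probe met the detection filter through the NZW mice alone, so its adjusted p is not taken as support. Without any 1 NZW mouse it was not tested. A further Cyp3a13 probe was not tested. The other 4 Cyp3a genes were not tested, so nothing is said of the subfamily.

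Cyp1b1, which hydroxylates estradiol and polycyclic hydrocarbons and is a target of the aryl hydrocarbon receptor, stood at 8.10, 7.67, and 7.50 in B6 and at 7.05, 7.20, and 6.36 in NZW. It was 1.84-fold higher in B6 (0.88 ± 0.24, SE, adjusted p = 0.033, limma), with no overlap, and the difference was 0.58 without background correction. The call was lost without NZW 1, NZW 3, B6 1, or B6 2, where the difference was between 0.63 and 1.05 over all mice left out and the adjusted p up to 0.11. Cyp2e1, which oxidises ethanol and small solvents, gave 0.01 ± 0.15 on ILMN_1214390 and -0.39 ± 0.15 on ILMN_2687014, with adjusted p-values of 0.98 and 0.12 (limma). Cyp2s1, a P450 of tissues outside the liver, gave -0.08 ± 0.12, and Cyp2f2, known from airway cells, gave -0.09 ± 0.21.

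Cyp7b1, which hydroxylates oxysterols and steroids, stood at 7.27, 7.51, and 7.26 in B6 and at 6.91, 6.94, and 6.98 in NZW. Its difference of 0.40 ± 0.11 (SE) was 1.32-fold, with an adjusted p of 0.038 by limma, and it was 0.26 without background correction. This call was lost on leaving out any 1 of the 6 mice (NZW 1, 2, or 3, or B6 1, 2, or 3), with adjusted p-values of up to 0.16. Cyp27a1, the mitochondrial sterol hydroxylase, gave 0.24 ± 0.12 and 0.28 ± 0.20 on 2 probes, neither past the threshold. Cyp26b1, which clears retinoic acid, had means of 9.47 ± 0.47 in B6 and 9.85 ± 0.39 in NZW (SD, n = 3 each), with an adjusted p of 0.36 by limma.

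Genes of steroid synthesis were dim. Cyp11a, the side chain cleavage enzyme, on 1 of its 2 probes, and Cyp17a1 gave -0.22 ± 0.20 and 0.12 ± 0.16, and 6 of the 8 probes of this role were detected in no mouse. Among those 6 were the other Cyp11a probe and the Cyp11a1 probes. The probe matched to the tested Cyp11a probe was detected in no BALB/c, DBA1, or 129/svj mouse. What the tested Cyp11a probe measured is therefore uncertain. The adrenal gland lies on the kidney and makes these enzymes. The 5 tested adrenal marker probes included both Star probes, at means of 5.77 to 5.91, and none passed between B6 and NZW by limma (1 at an unadjusted p of 0.05).

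**Figure D3:**
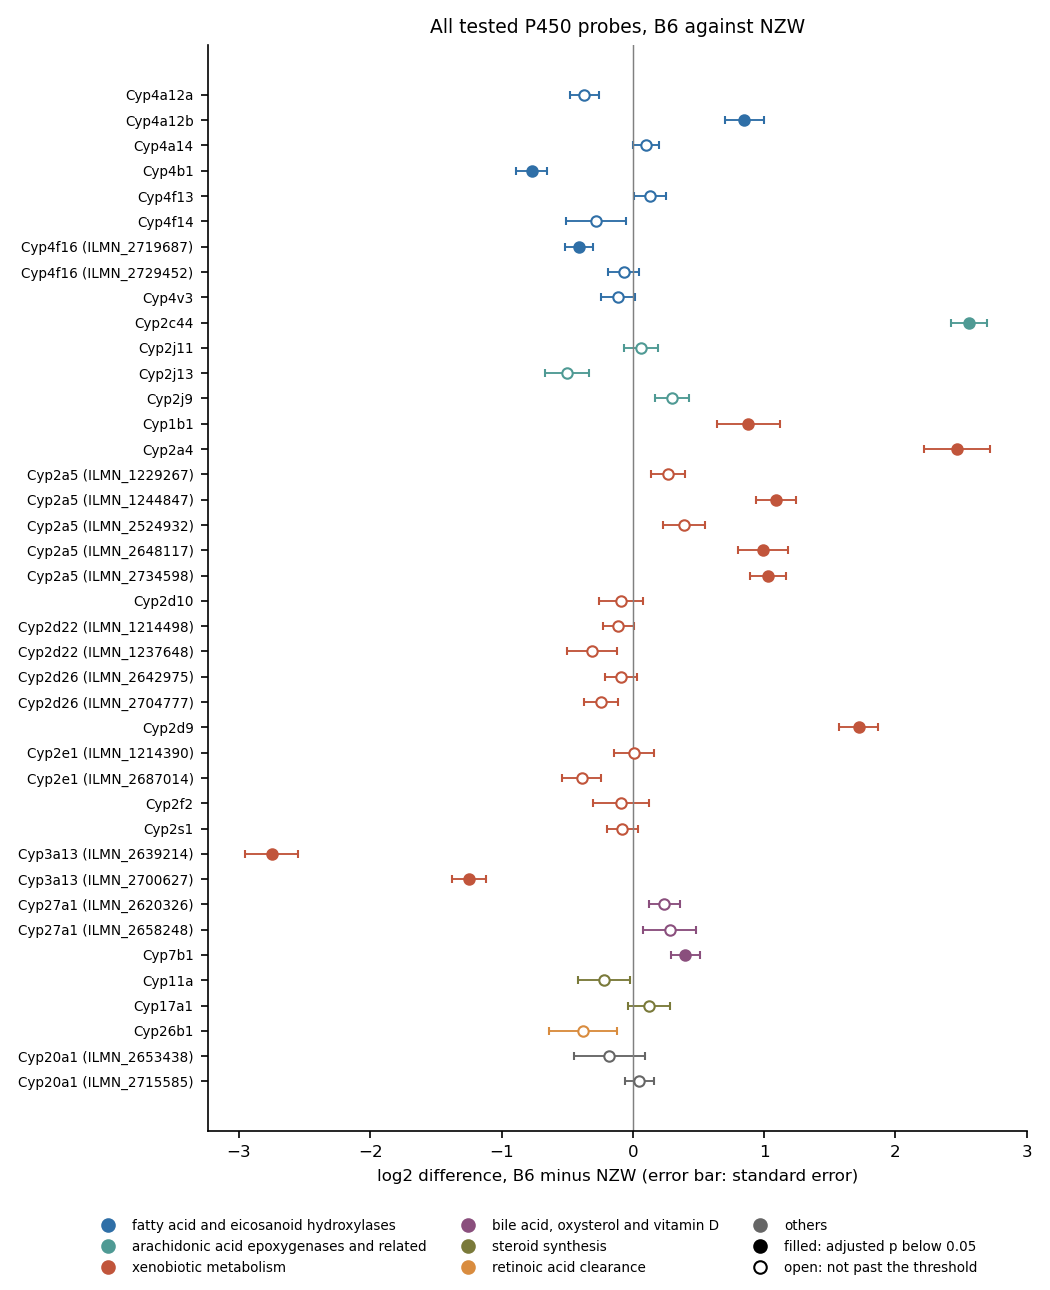
Log2 difference of B6 minus NZW (x axis, bar: standard error) for the 40 tested P450 probes (y axis, coloured by role). Filled points passed an adjusted p of 0.05 and open points did not. The 27 open points lie between -0.50 and 0.39, while Cyp2c44 and Cyp2a4 lie above 2 and a Cyp3a13 probe below -2.

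The other probes gave small differences. Over these 27 the difference ran from -0.50 to 0.39, with a median size of 0.18, as the plot of all tested probes shows. Where a gene had more than 1 tested probe, 6 of 8 genes had the same sign on all of them, the exceptions being Cyp2e1 and Cyp20a1, an enzyme of unknown substrate, which gave -0.18 ± 0.27 and 0.05 ± 0.11.

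Partners and regulators of the P450 enzymes were read from lists by role. Among 9 electron supply probes, 2 were higher in B6 and 1 lower. Por had means of 9.46 in B6 and 9.61 in NZW on its brighter probe (difference -0.15 ± 0.15). Its dim probe was lower in B6 (adjusted p = 0.017, limma) and was detected in no B6 mouse and in all 3 NZW mice. That dim probe met the detection filter through NZW alone, so its adjusted p is not taken as support. The epoxide hydrolases Ephx1 and Ephx2, which open the epoxides that Cyp2c and Cyp2j enzymes make, gave -0.22 ± 0.12 and 0.20 ± 0.11, neither past the threshold. Among 12 probes of 9 receptors that control P450 genes none was higher and 2 were lower in B6: Ppara, the receptor that fibrates and fatty acids act on, at -1.23 ± 0.21 (adjusted p = 0.0042, limma), and Nr1h4, the bile acid receptor, at -0.39 ± 0.11. Among 8 probes of PPAR alpha targets outside the family 1 was lower, Acaa1b at -0.36 ± 0.10. The 4 probes of androgen-dependent kidney genes, Kap, Slc7a12, and 2 of Gusb, gave -0.29 to -0.08, none past the threshold.

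In the table of BALB/c, DBA1, and 129/svj, 3 of 11 tested members differed between BALB/c and the mean of the sensitive strains, and all 3 were lower in BALB/c. They were the Cyp4a12a, Cyp4a12b, and Cyp4b1 probes, all fatty acid and eicosanoid hydroxylases. Of the 15818 probes tested in these strains, 6.01% passed, and 3.02% were lower in BALB/c. Against DBA1 alone 3 members were lower in BALB/c, beside 5.75% of all probes in either direction and 2.89% lower. Against 129/svj 4 were lower, beside 4.83% and 2.36%. Between DBA1 and 129/svj 1 was lower in DBA1, beside 4.49% and 2.31%. The median log2 difference of BALB/c minus the mean of DBA1 and 129/svj was -0.56 over the 11 members and 0.01 over all probes. These contrasts share mice, and several members of high signal in the first table have no row here that could be matched.

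**Figure D4:**
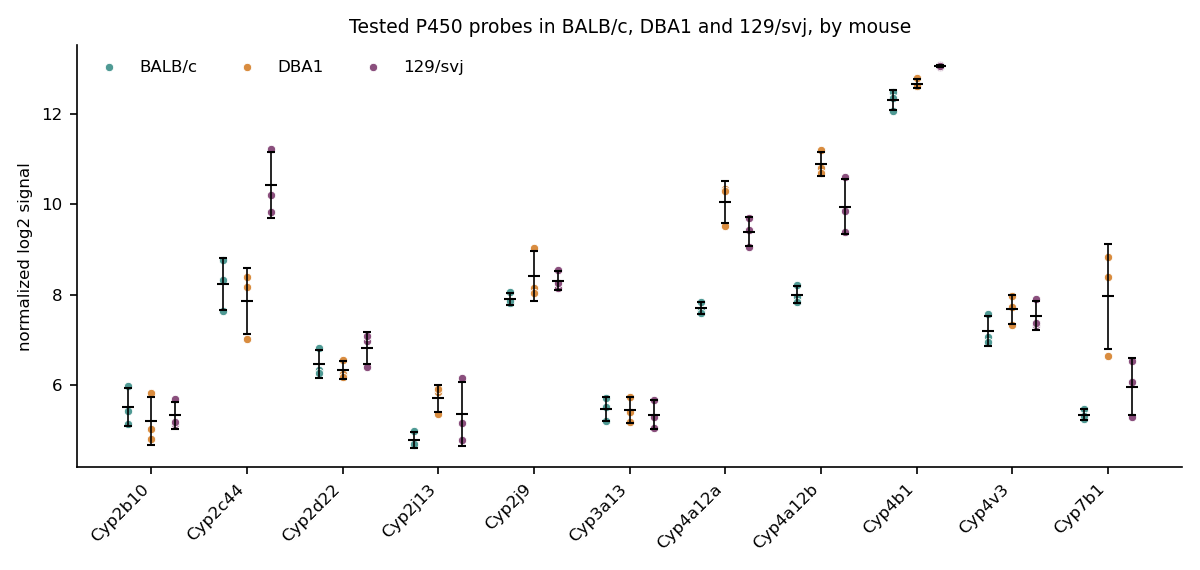
Normalized log2 signal (y axis) of the 11 tested P450 probes (x axis) in BALB/c, DBA1, and 129/svj, with a point per mouse, 3 mice per strain, a dash for the mean, and a bar for the SD. The BALB/c mice lie below all other mice for Cyp4a12a, Cyp4a12b, and Cyp4b1, and the 129/svj mice above all others for Cyp2c44. Heights of different probes are not comparable.

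Cyp4a12b, the arachidonic acid hydroxylase that was higher in B6 than in NZW, stood at 8.21, 7.95, and 7.83 in the BALB/c mice, at 10.80, 11.19, and 10.69 in the DBA1 mice, and at 9.85, 9.38, and 10.59 in the 129/svj mice. Every BALB/c mouse was below every mouse of the other strains. BALB/c was 7.43-fold lower than DBA1 (log2 difference -2.89 ± 0.28, SE, adjusted p = 0.00016, limma) and 3.84-fold lower than 129/svj (-1.94 ± 0.28, adjusted p = 0.0022, limma). DBA1 minus 129/svj was 0.95 ± 0.28, with an adjusted p of 0.11.

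Cyp4a12a, the closely related hydroxylase, stood at 7.66, 7.59, and 7.84 in BALB/c, at 10.34, 10.30, and 9.51 in DBA1, and at 9.05, 9.43, and 9.69 in 129/svj. Again no BALB/c mouse reached the others, while DBA1 and 129/svj overlapped. BALB/c was 5.12-fold lower than DBA1 (-2.36 ± 0.24, SE, adjusted p = 0.00025, limma) and 3.24-fold lower than 129/svj (-1.70 ± 0.24, adjusted p = 0.0022, limma). Both copies had BALB/c as the lowest and DBA1 as the highest strain by mean, though the order of DBA1 and 129/svj was not past the threshold for either. Since the probes may share targets, these are not taken as separate pieces of evidence.

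Cyp4b1 stood at 12.48, 12.35, and 12.05 in BALB/c, at 12.60, 12.61, and 12.78 in DBA1, and at 13.02, 13.08, and 13.05 in 129/svj. The strains did not overlap in any pair. BALB/c was 1.69-fold lower than 129/svj (-0.76 ± 0.15, SE, adjusted p = 0.014, limma) and 1.48-fold lower than the mean of both sensitive strains (-0.56 ± 0.13, adjusted p = 0.027, limma). Against DBA1 the difference was -0.37 ± 0.15, with an adjusted p of 0.20. The call against 129/svj was lost without BALB/c 2, BALB/c 3, or 129/svj 1, with adjusted p-values of up to 0.055. That against the mean was lost without BALB/c 2, BALB/c 3, DBA1 2, or 129/svj 1, with adjusted p-values of up to 0.12.

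The epoxygenase Cyp2c44 set 129/svj apart from the other strains of this table. It stood at 10.20, 11.22, and 9.83 in 129/svj, at 7.64, 8.33, and 8.76 in BALB/c, and at 8.18, 8.39, and 7.03 in DBA1. The 129/svj mice were above all others, and BALB/c and DBA1 overlapped. BALB/c was 4.52-fold lower than 129/svj (-2.18 ± 0.45, SE, adjusted p = 0.020, limma) and DBA1 5.88-fold lower (-2.55 ± 0.45, adjusted p = 0.0080, limma). BALB/c minus DBA1 was 0.38 ± 0.45, with an adjusted p of 0.72. The call of BALB/c against 129/svj was lost without BALB/c 1, BALB/c 2, 129/svj 1, or 129/svj 2, with adjusted p-values of up to 0.085, and that of DBA1 against 129/svj held without any 1 mouse.

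Cyp7b1, the oxysterol hydroxylase, was detected in no BALB/c mouse, in all 3 DBA1 mice, and in 2 of 3 mice of 129/svj. Its log2 signals were 5.26, 5.48, and 5.31 in BALB/c, 6.64, 8.84, and 8.39 in DBA1, and 5.30, 6.54, and 6.08 in 129/svj. DBA1 was apart from BALB/c in every mouse but its own mice were widely spread. Measured against the lowest detected signal of each BALB/c array, the DBA1 mean was at least 4.86-fold higher than BALB/c. This bound was computed with the main background correction only. The fitted difference of BALB/c minus DBA1 was -2.61 ± 0.50 (SE, adjusted p = 0.013, limma), and -1.29 without background correction. This call was lost without BALB/c 1, BALB/c 2, or BALB/c 3, with adjusted p-values of up to 0.055. DBA1 minus 129/svj was 1.99 ± 0.50, with an adjusted p of 0.058.

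The other 6 tested members, which were Cyp2j9, Cyp2j13, Cyp2d22, Cyp4v3, Cyp2b10, and Cyp3a13, passed in no contrast of this table. For BALB/c minus the mean of DBA1 and 129/svj they ran from -0.74 ± 0.27 for Cyp2j13, which was detected in no BALB/c mouse, to 0.24 ± 0.25 for Cyp2b10, an enzyme that the receptor Nr1i3 induces in liver. Cyp2j9 gave -0.44 ± 0.22, with means of 7.91 in BALB/c, 8.41 in DBA1, and 8.31 in 129/svj, and its other probe, detected in fewer than 3 mice, had means of 5.36, 5.66, and 5.59. Cyp4v3 gave -0.41 ± 0.20, with strain means of 7.20, 7.68, and 7.53 in that order. Cyp2d22 gave -0.10 ± 0.19, with means of 6.47, 6.33, and 6.82. Cyp3a13, which set B6 and NZW far apart, had means of 5.48 in BALB/c, 5.45 in DBA1, and 5.35 in 129/svj, with 1 of 3 mice detected in each. That row matches 3 probes of the first table, so which of them it corresponds to is unknown.

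Few partners of the family could be read with these strains. Nqo1, a quinone reductase, was lower in BALB/c than in DBA1 (-0.79 ± 0.16) and than in 129/svj (-0.80 ± 0.16), each with an adjusted p of 0.018 by limma. Between B6 and NZW, Nqo1 had the opposite sign and was higher in B6, at 0.55 ± 0.14 (adjusted p = 0.03, limma). Kap, a proximal tubule gene that androgens induce, had means of 13.03, 13.30, and 12.66 in BALB/c, DBA1, and 129/svj and passed in no contrast.

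The resistant and sensitive strains were compared over both tables for the members whose search key was unique in each, by the mean of the within-table differences. Of 26 such probes 13 were tested, and 5 passed, 1 higher and 4 lower in the resistant strains, beside 13.3% of the 6896 tested probes, 7.77% higher and 5.54% lower. Those lower were Cyp4a12a at -1.20 ± 0.14 (adjusted p = 1.7e-05), Cyp4b1 at -0.67 ± 0.09 (adjusted p = 6.6e-05), and Cyp4a12b at -0.78 ± 0.16 (adjusted p = 0.0036), together with Cyp2j13 (adjusted p = 0.034), all by limma. Cyp2j13 was detected in no BALB/c mouse, in 2 of 3 DBA1 mice, in 1 of 3 mice of 129/svj, in 1 of 3 B6 mice, and in 2 of 3 NZW mice, so the size of its fitted difference of -0.62, or -0.31 without background correction and -0.33 with an offset of 50, is not exact. Cyp2c44 was higher, at 0.83 ± 0.25 (adjusted p = 0.036). The mean hides opposite signs, since for Cyp2c44 the differences were 2.56 within the table of B6 and NZW and -0.90 within the other, and for Cyp4a12b 0.85 and -2.42.

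**Figure D5:**
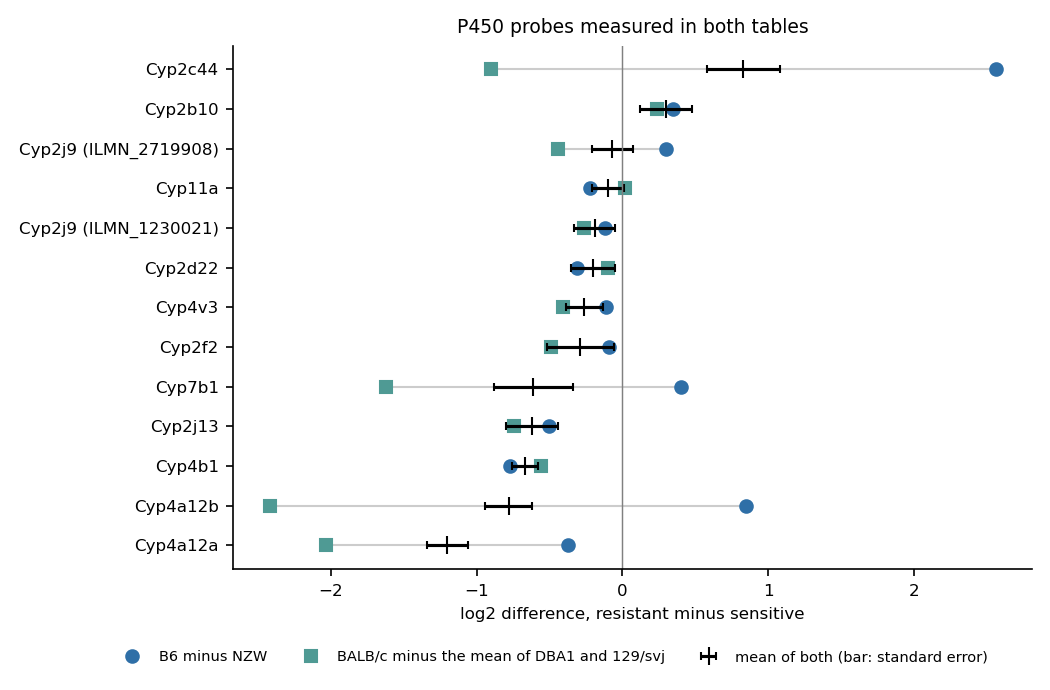
Log2 difference of resistant minus sensitive strains (x axis) for the 13 P450 probes tested over both tables (y axis), as B6 minus NZW (circles), BALB/c minus the mean of DBA1 and 129/svj (squares), and their mean with its standard error (black). Circle and square lie on opposite sides of 0 for Cyp2c44, Cyp4a12b, and Cyp7b1, and close together at -0.77 and -0.56 for Cyp4b1.

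Cyp4b1 and Cyp4a12a kept their calls in the joint fit without any 1 of the 15 mice, with adjusted p-values of up to 0.00044 and 0.00011, as did Cyp4a12b, with up to 0.014. Those of Cyp2c44 and Cyp2j13 did not. Cyp2c44 lost its call without NZW 1, NZW 2, B6 1, B6 2, B6 3, BALB/c 2, BALB/c 3, or 129/svj 1, with adjusted p-values of up to 0.10. Cyp2j13 lost its call without NZW 1, NZW 2, B6 2, B6 3, BALB/c 1, BALB/c 2, or DBA1 2, with up to 0.094. With strain as a random block, Cyp4b1 and Cyp4a12a kept their calls (adjusted p = 0.013 and 0.026, limma). Those of Cyp4a12b (adjusted p = 0.37), Cyp2c44 (0.80), and Cyp2j13 (0.20) were lost in the same fit. The random block uses a single within-strain correlation shared by all probes. It does not estimate each gene's own spread between strains, so it is not a test with strains as replicates.

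Among the 13 members tested over both tables, Cyp4b1 was the one for which B6 was below NZW and BALB/c was below the mean of DBA1 and 129/svj with both differences past the threshold. Over all probes tested within each table, 9.61% were lower in B6 and 3.02% lower in BALB/c. The share of all pairs lower in both is not given here, so this count is not read as a result about the family. The within-table differences were -0.77 and -0.56, and their own difference of 0.20 ± 0.17 had an adjusted p of 0.56 by limma. Of all tested pairs, the difference between the within-table differences passed for 11.8%, and 7.13% passed with a value below 0, beside 4 of the 13 members, all below 0. These 4 were Cyp2c44, Cyp4a12a, Cyp4a12b, and Cyp7b1. How well the key joins the tables was checked on detection. Of 4681 paired probes detected in all B6 and NZW mice, 88.3% were also detected in at least 3 mice of the other table, and of 10 such members 8 were.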

How the data were processed

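The authors deposited raw scanner values for every array: an intensity per probe, not normalized, and a detection p-value relative to control beads. The design text names BeadStudio for the scanner values. Its version and the genome build are not given in the sources used here. Background was removed by normexp (limma's nec, which takes its noise from the deposited detection p-values) with 16 added, each of the 2 tables was quantile normalized by itself over all its probes, and log2 values were used. The 3 repeat arrays were averaged with their mouse's other array, and the 11 rows that repeat a probe with its first row.

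Probes detected in at least 3 mice of a table entered lmFit and eBayes (limma 3.58.1, R 4.3.3; a coefficient for every strain), with Benjamini-Hochberg adjustment over all of them and a threshold of 0.05. For the comparison over both tables, 19886 probe pairs with a search key unique in each table were joined after separate normalization. Fold changes include the offset. A probe detected in no mouse of a strain got a bound against the lowest detected signal of each of those arrays, under this processing only. Symbols follow the annotation in the B6 and NZW file and can be old. Promoter windows are from RefSeq, GRCm38.p6. Summaries and figures were made with Python 3.11.15, pandas 2.3.3, and matplotlib 3.10.9.

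The members, the lists of markers, partners, and regulators, and the rule for named genes were chosen with earlier results of these data known. Named with values are members past the threshold and 1 or more apart on the log2 scale, the 10 members of highest mean signal per table, members with more than 1 tested probe, and Cyp4b1, while others complete a group or were chosen after their values were seen. Marker and regulator lists were read as counts, some of them given in the closing section. Results for some genes of these lists are not reported here. In a simulation with 200 probes moved by 1 (log2), the procedure called 74.5% of them for B6 minus NZW, 66.5% for BALB/c minus the mean of DBA1 and 129/svj, and 96.5% for the joint comparison, and 5.10%, 3.62%, and 4.93% of its calls were probes left as they were. Precision is set by having 3 mice per strain.

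The alternatives covered background correction, offset, normalization, joint normalization, detection filter, repeat arrays, variance model, replicate number as a block, the methods' t-test, a minimum size, strain as a random block, and each mouse left out.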

Additional observations from a re-analysis of the deposited data

Results flagged for a closer look

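For 4 members the difference between resistant and sensitive strains was not the same within the 2 tables, by a test of the difference itself in the joint limma fit (BALB/c minus the mean of DBA1 and 129/svj, less B6 minus NZW). It was -3.46 ± 0.49 (SE) for the epoxygenase Cyp2c44, with an adjusted p of 0.00016. It was -3.27 ± 0.32 for the arachidonic acid hydroxylase Cyp4a12b (adjusted p = 4.2e-06) and -1.66 ± 0.27 for its copy Cyp4a12a (adjusted p = 0.00058). For the oxysterol hydroxylase Cyp7b1 it was -2.02 ± 0.54 (adjusted p = 0.024), and since no BALB/c mouse had this probe detected, the size of that value is not exact. Cyp4a12a was below 0 within both tables, at -0.37 and -2.03, so its differences had the same sign and unequal size.

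All 4 passed with both tables normalized together, with arrays scaled to the 75th percentile, with the replicate number as a block, and without the repeat arrays. Other alternatives, among them each mouse left out and no background correction, are not given for this difference. The highest adjusted p over these alternatives was 0.04, for Cyp7b1 without the repeat arrays. The resistant strain, the sensitive strains, and the table all differ between the 2 differences, and these cannot be told apart.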

How the results depend on the processing

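Between B6 and NZW the count of 13 members past the threshold became 5 with both tables normalized together over paired probes, where fewer members could be tested, 8 by the methods' t-test, and 7 with a log2 difference of at least 1, and was 10 to 11 with 1 mouse left out. BALB/c minus the mean of DBA1 and 129/svj, at 3, ran from 2 to 4 with 1 mouse left out, and BALB/c minus DBA1, at 3, from 2 to 3. BALB/c minus 129/svj, at 4, became 0 by the methods' t-test and ran from 2 to 4, with 2 without BALB/c 2 or 129/svj 1. DBA1 minus 129/svj, at 1, became 2 with 75th percentile scaling and with joint normalization and 0 by the methods' t-test, and ran from 1 to 2, with 2 without DBA1 1, DBA1 3, or 129/svj 3. The mean of the within-table differences, at 5, became 3 with joint normalization, 3 with no filter on detection, 3 by the methods' t-test, 1 with a log2 difference of at least 1, and 2 (Cyp4b1 and Cyp4a12a) with strain as a random block, and ran from 3 to 6, with 3 without NZW 1, NZW 2, B6 2, B6 3, or BALB/c 2. No member past the threshold changed sign in its own contrast under an alternative in which it was tested, and members that did not pass were not followed over the alternatives. Apart from these changes in construction, the cause was not tested.

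The deviations of same-numbered mice of different strains correlated at r from -0.26 to 0.39 (12 pairs, 3 over 0.1). The pairs of DBA1 and 129/svj gave 0.19, 0.1, and 0.39, and those of NZW and B6 gave 0.01, -0.07, and -0.07. With 3 mice per strain, these values cannot decide whether the numbers pair the mice. With the replicate number as a block, DBA1 minus 129/svj went from 1 to 2 and B6 minus NZW from 13 to 11. Chip as a block was not run, because the headers name no chip. Where the methods' t-test called 0, limma's unadjusted p was under 0.05 for 4 members for BALB/c minus 129/svj and 5 for DBA1 minus 129/svj.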

Other observations

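Lists of cell type markers outside the tubule and injury groups gave these values between B6 and NZW. Of 12 tested probes of the loop, distal tubule, and collecting duct, 2 were higher in B6, both of Slc12a3, the thiazide-sensitive salt transporter, at log2 differences of 1.46 ± 0.13 and 0.77 ± 0.11 (SE). The other 2 Slc12a3 probes gave 0.13 ± 0.13 and -0.14 ± 0.13, neither past the threshold, so the probes of this gene differed. By limma's adjusted p, 0 of 6 endothelial, 0 of 6 macrophage, 0 of 3 lymphocyte, and 0 of 5 neutrophil probes passed. At an unadjusted p of 0.05 these counts were 2, 1, 0, and 0. Of 5 liver probes 2 were higher in B6 and 1 lower. Those higher were 1 of 2 probes of Apoa2, an apolipoprotein (means of 4.67 in NZW and 8.61 in B6), and the probe of Serpina1a, a protease inhibitor (5.00 and 6.18), and both were detected in no NZW mouse and in all 3 B6 mice. The other Apoa2 probe gave -0.30 ± 0.16 and did not pass. Ttr, the thyroxine carrier, was lower at -0.90 ± 0.16. No probe of the liver genes Alb, Ahsg, and Fgb was detected in 3 or more of these mice.

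Among 10 probes of haem supply and binding, 3 were higher in B6 and 1 lower. Hmox1, which breaks down haem, was higher at 0.67 ± 0.17. The probes of Pgrmc2, a haem carrier, were not of one sign, at 0.93 ± 0.10 and -0.63 ± 0.16, while one that was detected in no NZW mouse had means of 5.17 in NZW and 6.15 in B6. In the table of BALB/c, DBA1, and 129/svj, 1 probe of these lists passed in any contrast. It was Calb1, a calcium-binding protein of the distal tubule, higher in BALB/c than in DBA1 at 1.25 ± 0.31.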
